A study of Mus musculus with 36 samples.

Results

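The RNA levels of 6 receptor genes of blood-forming cells, Kit, Flt3, Csf1r, Csf3r, Il7r and Epor, were followed in mouse dendritic and multipotent progenitors over 24 h of TGF-β1. The genes were chosen by symbol as a family of cytokine and growth factor receptors, and the rule itself used no measured value. Earlier results of these data were known when the family was chosen. Counts of the 6 beside shares of all genes are therefore descriptive. They are 6 of the 19938 genes that the platform's annotation ties to a probe set carrying 1 symbol. Each of the 6 has 1 such probe set, so no second probe set could be set beside it.

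Common dendritic progenitors (CDP) are committed to dendritic cells (DC) and develop from multipotent progenitors (MPP). The starting material was mouse bone marrow, grown with cytokines, from which each population was isolated by flow cytometry. Cells were left untreated (0 h) or received recombinant human TGF-β1 at 10 ng/ml for 2, 4, 8, 12 or 24 h, and RNA was hybridised to Affymetrix Mouse Gene 1.0 ST arrays. The 12 groups are thus CDP and MPP at 6 times each, with 3 arrays per group and 36 in all, which the study describes as biological replicates. One protocol line of the labels has 6 h in place of the 8 h that the sample titles give. The cytokines used, the surface markers of the sort and the strain, sex and age of the mice are not given in the sources used here. Untreated cells at later times were not analysed here. TGF-β1 and time in culture therefore cannot be told apart in any change against 0 h.

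Kit, Flt3 and Csf1r are related receptor tyrosine kinases. Binding of a ligand pairs the receptor chains, whose own kinase domains then phosphorylate each other and start Ras, phosphoinositide and Stat signals. Csf3r, Il7r and Epor belong to the type I cytokine receptors, which have no kinase domain and signal through Jak kinases and Stat factors bound to their tails. Kit is known as the receptor of stem cell factor on stem and progenitor cells and on mast cells, Flt3 as the receptor that drives dendritic cell development, and Csf1r as the receptor for growth and survival of macrophages. Csf3r carries the granulocyte colony-stimulating factor signal of the neutrophil lineage, Il7r is needed for lymphocyte development and Epor for red cell formation.

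The labelled cell types were checked against marker genes. Of 19 measured DC markers, 10 were higher and 0 lower in untreated CDP than in untreated MPP, among them H2-Aa (5.69 ± 0.27 on the log2 scale, SE) and Itgax (3.65 ± 0.17). Of 18 neutrophil markers, 14 were lower in untreated CDP, among them Elane (-5.36 ± 0.15) and Mpo (-5.58 ± 0.23), and of 14 mast cell and basophil markers 6 were lower, among them Cpa3 (-5.51 ± 0.18). Elane and Cpa3 had mean levels of 13.74 and 11.97 in untreated MPP. Arrays of 1 group correlated at 0.985 or more. Replicate 1 stood apart in both cell types by sex-linked transcripts. Its 6 arrays per cell type had Xist at 6.84 to 7.28 and the Y-linked gene Eif2s3y at 10.04 to 10.47, while all other arrays had Xist at 12.62 to 13.74 and Eif2s3y at 5.08 to 5.19. The mean level of 11 interferon-stimulated genes varied between CDP arrays from 7.79 to 12.7, with the highest in replicate 3 at 2 h, and among MPP arrays it was highest in replicate 3 at 0 h. Leaving out both of these arrays, an alternative chosen after seeing the data, changed no receptor call. Other CDP arrays with high levels of these genes were kept, among them replicate 3 at 0 h (10.55) and replicate 1 at 4 h (10.45). This check does not cover them.

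At 24 h of TGF-β1, 3 of the 6 receptors passed the test in CDP, where 3.14% of all genes did. Kit rose 6.93-fold, Csf3r fell 5.03-fold and Il7r rose 4.65-fold. In MPP 1 of the 6 passed, Flt3, where 1.2% of all genes did. At 2 h 0 of the 6 passed in CDP, against 0.326% of all genes, and 0 in MPP, against 0.271% (limma, 3 and 2 at an unadjusted p under 0.05). Counts by unadjusted p, here and below, use another threshold than the shares of all genes and are not to be set against them. The share of all genes at that threshold was not counted. Csf1r changed by less than 2-fold in both cell types and Epor stayed between 6.74 and 7.15 on all 36 arrays. A gene passed, here and below, at a Benjamini-Hochberg adjusted p under 0.01 over all genes and an absolute log2 change of 1 or more in limma, a moderated linear model whose tests are two-sided. Levels are log2 intensities, changes are differences of log2 levels ± SE with 3 arrays per group, and levels of different probe sets are not set against each other. In a bulk sample a lower level can mean fewer cells of a kind or less RNA per cell, and these cannot be told apart.

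**Figure D1:**
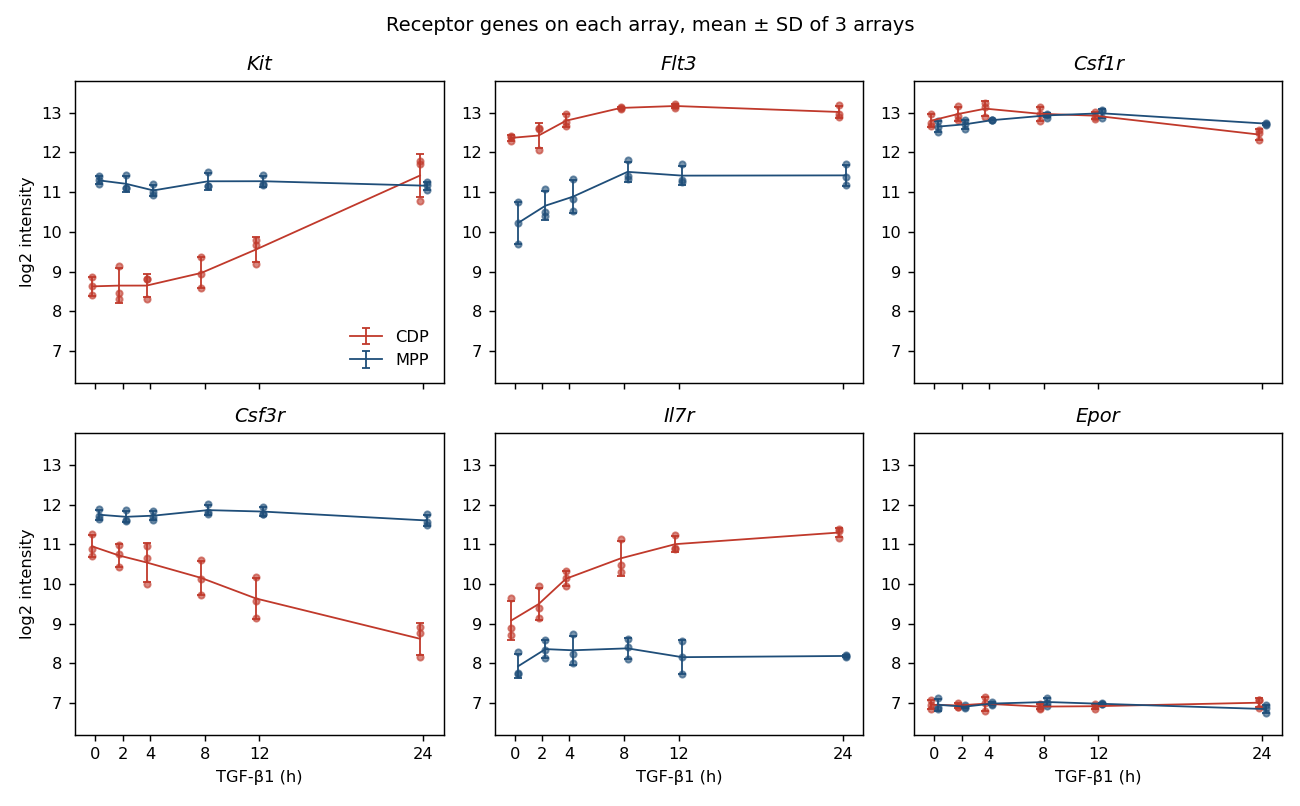
Log2 intensity (vertical axis) of each receptor gene against hours of TGF-β1 (horizontal axis) in CDP (red) and MPP (blue). Points are single arrays, lines join the means of 3 arrays and bars are SD. Kit and Il7r climb and Csf3r falls in CDP, Flt3 climbs in MPP, and Epor lies flat at 6.74 to 7.15.

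The promoters of the 4 genes that passed in either time course are shown because the members moved in opposite directions and first passed at different times. Each line gives the 250 bases before the annotated start, 5′ to 3′ on the gene's own strand, from RefSeq on the GRCm38.p6 build, with matches to any of the 3 motifs below in capitals. The windows are chr5:75574737-75574986 (plus strand) for Kit, chr5:147400490-147400739 (minus strand) for Flt3, chr4:126024409-126024658 (plus strand) for Csf3r and chr15:9529877-9530126 (minus strand) for Il7r.
Kit: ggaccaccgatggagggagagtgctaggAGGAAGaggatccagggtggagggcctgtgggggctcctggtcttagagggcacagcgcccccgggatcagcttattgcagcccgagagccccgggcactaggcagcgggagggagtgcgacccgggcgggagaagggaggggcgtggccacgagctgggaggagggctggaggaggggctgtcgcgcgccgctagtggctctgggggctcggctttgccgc
Flt3: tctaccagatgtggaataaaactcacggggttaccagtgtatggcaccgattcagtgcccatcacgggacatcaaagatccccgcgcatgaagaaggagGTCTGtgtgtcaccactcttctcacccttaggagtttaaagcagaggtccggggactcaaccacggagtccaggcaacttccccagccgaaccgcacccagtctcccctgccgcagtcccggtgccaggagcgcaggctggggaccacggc
Csf3r: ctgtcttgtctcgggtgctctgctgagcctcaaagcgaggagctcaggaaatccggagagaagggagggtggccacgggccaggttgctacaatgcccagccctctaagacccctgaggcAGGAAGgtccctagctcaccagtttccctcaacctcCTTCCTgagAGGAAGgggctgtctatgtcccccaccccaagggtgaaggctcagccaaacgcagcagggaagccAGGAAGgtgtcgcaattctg
Il7r: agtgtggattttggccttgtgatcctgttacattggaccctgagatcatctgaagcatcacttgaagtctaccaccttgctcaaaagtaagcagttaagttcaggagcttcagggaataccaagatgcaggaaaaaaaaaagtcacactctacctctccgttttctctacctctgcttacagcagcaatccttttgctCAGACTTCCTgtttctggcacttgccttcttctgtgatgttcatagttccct

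Searched on both strands were AGGAAG, a core letter run of ETS factors such as PU.1, CAGAC, a core run of Smad factors that act downstream of TGF-β, and AGATAA, the usual GATA run. Csf3r held AGGAAG at 4 places, which start 130, 94, 85 and 20 bases before the annotated start. Kit held it once, 222 bases before the start, and Il7r once, 48 bases before it, where it shares 1 base with a CAGAC. Flt3 held 1 CAGAC and no AGGAAG. In all, 29.2% of 27025 mouse promoter windows of the same length hold AGGAAG, 42.1% hold CAGAC and 10.3% hold AGATAA, which none of the 4 printed windows has. These are matches of letters only. The Epor window (chr9:21963577-21963826) held 1 AGATAA and 1 CAGAC.

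Kit rose late in CDP and passed only at 24 h. Over the course its CDP arrays (replicates 1, 2 and 3) had levels of 8.40, 8.86 and 8.63 at 0 h, 8.32, 8.47 and 9.15 at 2 h and 8.81, 8.82 and 8.31 at 4 h. They had 8.59, 8.95 and 9.37 at 8 h, 9.19, 9.68 and 9.80 at 12 h, and 11.70, 10.79 and 11.78 at 24 h. Through 8 h the arrays overlapped those of 0 h, at 12 h all 3 lay above them, and at 24 h all 3 lay above every earlier CDP array. Against 0 h the change was 0.34 ± 0.26 at 8 h and 0.93 ± 0.26 at 12 h (limma, adjusted p = 0.0232), and 2.79 ± 0.26 at 24 h (6.93-fold, adjusted p = 1.52e-06). All 3 same-numbered pairs of 24 h and 0 h arrays rose, by 3.30, 1.93 and 3.15. Replicate 2, which had the highest Kit level before treatment, had the lowest at 24 h.

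The last step alone, 24 h against 12 h, was 1.86 ± 0.26 (limma, adjusted p = 0.000471) and passed. Here 2 of the 6 receptors passed, against 0.431% of all genes. Without replicate 1 that step was 1.54 with an adjusted p of 0.0404 and no longer passed, while the change against 0 h kept passing without any 1 array or replicate number (2.54 to 3.22).

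In MPP the same probe set was high throughout and nearly flat. MPP at 24 h had 11.19, 11.05 and 11.25, and untreated MPP had 11.30, 11.20 and 11.40. The 18 MPP arrays spanned 10.92 to 11.52 and overlapped at every time with 0 h. The largest MPP change was at 4 h (-0.25 ± 0.05, limma, adjusted p = 0.00578), with all 3 pairs lower, and it was under the fold threshold. By level, the highest of the 12 groups was CDP at 24 h (mean 11.42, SD 0.55). Next came the 6 MPP groups (11.04 to 11.30), each overlapping its neighbour, then a gap of 1.49 and CDP at 12, 8, 4, 2 and 0 h, again each overlapping the next.

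Since mast cells also carry Kit, mast cell and basophil genes were read beside it. In CDP at 24 h 1 of 14 such genes passed, Cpa3, which encodes a mast cell carboxypeptidase (7.82 at 24 h and 6.46 at 0 h, change 1.36 ± 0.09). The mean level of the list was 6.88 to 7.05 in CDP at 24 h and 6.75 to 6.84 at 0 h. The high-affinity IgE receptor genes Fcer1a (6.11 and 6.14) and Ms4a2 (6.21 and 6.17) and the protease genes Mcpt4 and Cma1 differed by 0.04 or less between CDP at 24 h and 0 h. Gata2, also on this list, was higher at 24 h but under the fold threshold, and its levels are given below. The part of these genes in the Kit change was not tested. Markers of stem and multipotent progenitors had a mean level of 8.57 to 8.68 in CDP at 24 h and 8.60 to 8.68 at 0 h. Of 13 measured, 1 passed, Cd93, which fell by 2.66 on the log2 scale.

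Lists of Langerhans cell and DC markers also rose in CDP. The Langerhans cell list lay above its 0 h range from 2 h on, Il7r from 4 h on and Kit only from 12 h on. These times depend on the spread of the arrays, and the courses were not compared by a test. The mean level of 8 Langerhans cell markers was 8.34 to 8.57 in CDP at 0 h, 8.65 to 8.79 at 2 h, 8.85 to 9.09 at 4 h, 9.21 to 9.37 at 8 h, 9.57 to 9.72 at 12 h and 10.00 to 10.06 at 24 h. Of the 8, 4 passed in CDP at 24 h, all higher: the adhesion genes Cdh1 (12.74 at 24 h and 8.74 at 0 h) and Epcam (2.52 ± 0.08), the receptor kinase gene Axl (3.71 ± 0.28) and the chemokine receptor gene Ccr6 (2.34 ± 0.18). The median change of the list was 1.36, beside 0.00 over all genes. Cd207, which encodes the defining Langerhans cell lectin langerin, was at 6.10 in CDP at 24 h and 6.12 at 0 h. In MPP 2 of the 8 passed, Axl (3.23 ± 0.09) and Cdh1 (1.04 ± 0.13), with a list mean of 8.52 to 8.68 at 24 h and 8.03 to 8.10 at 0 h.

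Of 19 DC markers 3 passed higher in CDP at 24 h, Siglech (3.22 ± 0.14), Itgax (1.91 ± 0.08) and the regulator of class II genes Ciita (1.30 ± 0.17), and 1 passed lower, Spib (-1.11 ± 0.29). By the adjusted p alone 16 of the 19 passed. The mean level of the list was 10.60 to 10.80 in CDP at 24 h and 10.21 to 10.41 at 0 h. In MPP Itgax and Siglech rose (2.75 ± 0.11 and 1.53 ± 0.13), with a list mean of 8.61 to 8.81 at 24 h and 8.31 to 8.49 at 0 h. The part of these cells in the Kit and Il7r changes was not tested.

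Flt3, the receptor of the dendritic growth factor Flt3 ligand, was the only receptor that passed in MPP. Its MPP arrays had 10.75, 10.23 and 9.69 at 0 h, 11.08, 10.50 and 10.40 at 2 h and 11.33, 10.82 and 10.51 at 4 h. They had 11.80, 11.41 and 11.32 at 8 h, 11.70, 11.26 and 11.30 at 12 h, and 11.70, 11.39 and 11.18 at 24 h. From 8 h on every array lay above all 3 untreated arrays, and replicate 1 was the highest at each time. The changes were 0.44 ± 0.10 at 2 h, 0.66 ± 0.10 at 4 h, 1.29 ± 0.10 at 8 h, 1.19 ± 0.10 at 12 h and 1.20 ± 0.10 at 24 h (2.29-fold, limma, adjusted p = 2.26e-07). The last 3 passed, which made 1 of 6 receptors at 8 h and at 12 h, against 0.657% and 0.737% of all genes. The largest step between neighbouring times was 8 h against 4 h (0.63 ± 0.10, limma, adjusted p = 0.00377), which stayed under the fold threshold, and the means at 8, 12 and 24 h lay within 0.10 of each other. Replicate 3 of untreated MPP, the MPP array with the highest interferon-stimulated genes, was also the lowest in Flt3. Without replicate 3 the 12 h change was 0.98 and no longer reached the fold threshold, and without the replicate block its adjusted p was 0.0103 (limma). Over the ways of leaving out 1 array or replicate number the 24 h change ranged from 1.05 to 1.32 and passed each time.

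In CDP Flt3 was already higher and moved the same way by less. Its CDP group means were brighter than 96.6% to 99.0% of genes, where array changes can be compressed. The part of compression in the smaller change was not tested. Untreated CDP had 12.42, 12.40 and 12.28, the 8 h arrays 13.16, 13.12 and 13.09, and the 24 h arrays 12.96, 13.20 and 12.90. From 4 h on the arrays lay above those of 0 h without overlap, and all 3 pairs were higher at 4, 8, 12 and 24 h. The change was 0.75 ± 0.10 at 8 h, 0.80 ± 0.10 at 12 h and 0.65 ± 0.10 at 24 h (1.57-fold, limma, adjusted p = 0.000114), each past the adjusted p but under the fold threshold. The 12 group means spanned 2.95, with all 6 CDP groups above all 6 MPP groups.

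Csf1r, the macrophage growth factor receptor, stayed under the fold threshold in every contrast. Its group means were brighter than 97.1% to 98.9% of genes, where array changes can be compressed, which was not measured here. Its 18 CDP arrays spanned 12.31 to 13.26 and its 18 MPP arrays 12.51 to 13.07. In CDP the level was 12.75, 12.67 and 12.98 at 0 h, 13.26, 12.90 and 13.16 at 4 h, and 12.48, 12.31 and 12.56 at 24 h. The 24 h arrays lay below all untreated ones, and all 3 pairs were lower. The change was 0.30 ± 0.06 at 4 h (limma, adjusted p = 0.00514) and -0.35 ± 0.06 at 24 h (1.27-fold lower, limma, adjusted p = 0.000513). Between 12 and 24 h the difference was larger (-0.47 ± 0.06, limma, adjusted p = 0.000227). In MPP the level was 12.51, 12.65 and 12.79 at 0 h, 12.86, 13.07 and 13.04 at 12 h, and 12.73, 12.75 and 12.70 at 24 h. The MPP change was 0.34 ± 0.06 at 12 h (limma, adjusted p = 0.000974) and 0.08 ± 0.06 at 24 h, where the arrays overlapped those of 0 h. In the order of the 12 means CDP at 4 h stood highest and CDP at 24 h lowest, and 10 of the 11 neighbouring pairs overlapped.

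Csf3r, the receptor of granulocyte colony-stimulating factor, had a lower mean in CDP at each successive time and passed at 12 and 24 h. The CDP arrays had 10.89, 10.70 and 11.26 at 0 h, 10.76, 10.41 and 10.98 at 2 h and 10.66, 10.01 and 10.95 at 4 h. They had 10.13, 9.73 and 10.59 at 8 h, 9.57, 9.14 and 10.18 at 12 h, and 8.77, 8.16 and 8.93 at 24 h. Within each time replicate 2 was the lowest and replicate 3 the highest, and the groups at 8, 12 and 24 h no longer overlapped that of 0 h. The changes were -0.23 ± 0.09, -0.41 ± 0.09, -0.80 ± 0.09, -1.32 ± 0.09 and -2.33 ± 0.09 at 2, 4, 8, 12 and 24 h, the last with pairs of -2.12, -2.54 and -2.33. At 12 h (limma, adjusted p = 2.14e-07) and 24 h (5.03-fold lower, limma, adjusted p = 3.55e-10) it passed, and at 24 h it ranked 37 of 19938 genes by p. At 12 h 2 of the 6 receptors passed, against 1.86% of all genes. The step 24 h against 12 h was -1.01 ± 0.09 (limma, adjusted p = 1.39e-05). It fell just under the fold threshold without replicate 3 (-0.89), CDP 12 h replicate 3 (-0.91), CDP 24 h replicate 2 (-0.98) or CDP 24 h replicate 3 (-0.97), and with quantile normalization again (-0.98). Without the replicate block its adjusted p was 0.0702 (limma).

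In MPP Csf3r was high and steady, with 11.49, 11.55 and 11.75 at 24 h and 11.63, 11.72 and 11.88 at 0 h. All 18 arrays lay within 11.49 to 12.00, and each time overlapped with 0 h. The 24 h change was -0.15 ± 0.04 (limma, adjusted p = 0.0158), with 3 of 3 pairs lower. The 6 MPP groups stood above all CDP groups, and CDP at 24 h stood 1.01 below its neighbour, CDP at 12 h, without overlap.

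Genes of the neutrophil and monocyte lineages were read beside Csf3r. In CDP at 24 h 3 of 18 neutrophil genes had passed, all lower: the collagenase gene Mmp8 (-5.14 ± 0.18) and the protease genes Ctsg (-3.59 ± 0.10) and Prtn3 (-1.35 ± 0.12). Of 20 monocyte and macrophage genes 11 had passed, all lower, led by the lectin genes Clec4a3 (-3.89 ± 0.22) and Clec4a1 (-3.36 ± 0.37) and by Adgre1, which encodes the macrophage antigen F4/80 (-3.44 ± 0.17). Next by size were F13a1, Mrc1, Gpnmb, Lyz2 and Fcgr1 (-3.22 to -1.91). The mean level of the monocyte and macrophage list was 8.34 to 8.90 in CDP at 24 h and 9.91 to 10.36 at 0 h, and that of the neutrophil list 7.48 to 7.79 and 8.02 to 8.36. Elane and Mpo were at 8.47 and 8.43 in CDP at 24 h and at 8.38 and 8.43 at 0 h. In MPP at 24 h 6 of the 20 monocyte and macrophage genes were lower, Clec4a1, Clec4a3, Msr1, Cd14, Adgre1 and Gpnmb (-3.69 to -1.16), while Csf3r was at -0.15. In MPP Mmp8 fell too (-2.13 ± 0.17). The part of these cells in the Csf3r change was not tested.

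Il7r, the chain that binds interleukin 7 and also serves in the receptor of thymic stromal lymphopoietin, rose in CDP from 4 h on. The CDP arrays had 8.90, 8.71 and 9.64 at 0 h, 9.40, 9.14 and 9.94 at 2 h and 10.14, 9.94 and 10.31 at 4 h. They had 10.48, 10.31 and 11.14 at 8 h, 10.89, 10.87 and 11.24 at 12 h, and 11.16, 11.35 and 11.38 at 24 h. From 4 h on the arrays lay above those of 0 h, all 3 pairs higher, and the SD was 0.12 at 24 h and 0.49 at 0 h. The changes were 0.41 ± 0.13, 1.05 ± 0.13, 1.56 ± 0.13, 1.92 ± 0.13 and 2.22 ± 0.13 at 2, 4, 8, 12 and 24 h (the last 4.65-fold, limma, adjusted p = 1.49e-08). From 4 h on Il7r passed, at 4 and 8 h as 1 of 6 receptors, against 0.702% and 1.27% of all genes. The steps between neighbouring times were 0.64, 0.51, 0.36 and 0.29 after 2 h, and none of these passed alone. The 4 h call sat at the fold threshold. It was lost without replicate 1 (0.96, limma, adjusted p = 0.0359), replicate 2 (0.96), CDP 0 h replicate 2 (0.96) or CDP 4 h replicate 1 (0.98), and its adjusted p was 0.0199 without the replicate block (limma).

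In MPP Il7r was lower, with 7.76, 8.28 and 7.74 at 0 h, 8.42, 8.61 and 8.10 at 8 h, and 8.16, 8.22 and 8.18 at 24 h. Each time overlapped with 0 h. The largest MPP change was 0.45 ± 0.11 at 8 h (limma, adjusted p = 0.00806), under the fold threshold, and that at 24 h was 0.26 ± 0.11 (limma, adjusted p = 0.131). By level the 6 CDP groups ran from 24 h at the top to 0 h, each overlapping the next, and CDP at 0 h stood 0.70 above the highest MPP group without overlap.

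The Langerhans cell and DC lists that rose in CDP are given above, and lymphoid genes were read beside Il7r too. Of 22 measured, 2 had passed in CDP at 24 h, the surface antigen gene Cd7 (13.27 at 24 h and 12.16 at 0 h) and the B cell receptor component gene Cd79b (11.17 and 12.24). The lymphoid progenitor genes Rag1 (6.13 and 6.15), Rag2 (5.39 and 5.29) and Ebf1 (6.04 and 6.05) differed by 0.09 or less. The mean level of the list was 7.03 to 7.17 in CDP at 24 h and 7.12 to 7.16 at 0 h. Cd7 rose in MPP as well (1.76 ± 0.14), where Il7r did not pass.

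Epor, the erythropoietin receptor gene, passed in no contrast. Its CDP arrays spanned 6.79 to 7.15 and its MPP arrays 6.74 to 7.13. The group means spanned 0.18, with every neighbour in their order overlapping. CDP at 24 h had 7.07, 7.07 and 6.88, against 6.85, 7.07 and 6.95 in untreated CDP. MPP at 24 h had 6.86, 6.94 and 6.74, against 6.84, 6.89 and 7.13 in untreated MPP. The lowest unadjusted p over 27 contrasts was 0.0512 (limma), for CDP minus MPP at 24 h (0.16 ± 0.08, adjusted p = 0.105). The 95% interval of the 24 h change was -0.13 to 0.24 in CDP and -0.26 to 0.04 in MPP. Probe sets of 28 genes that belong to other organs had means over the 36 arrays with quartiles of 6.48 and 7.64 (median 6.86). The erythroid genes Gata1, Klf1 and Alas2 read 6.77, 7.19 and 7.19 in CDP at 24 h and 6.69, 7.09 and 7.16 at 0 h, and in MPP 6.98, 7.17 and 7.12 at 24 h and 6.93, 7.13 and 7.14 at 0 h. At levels near background, array differences are compressed towards 0, and a small change of Epor was not detectable.

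**Figure D2:**
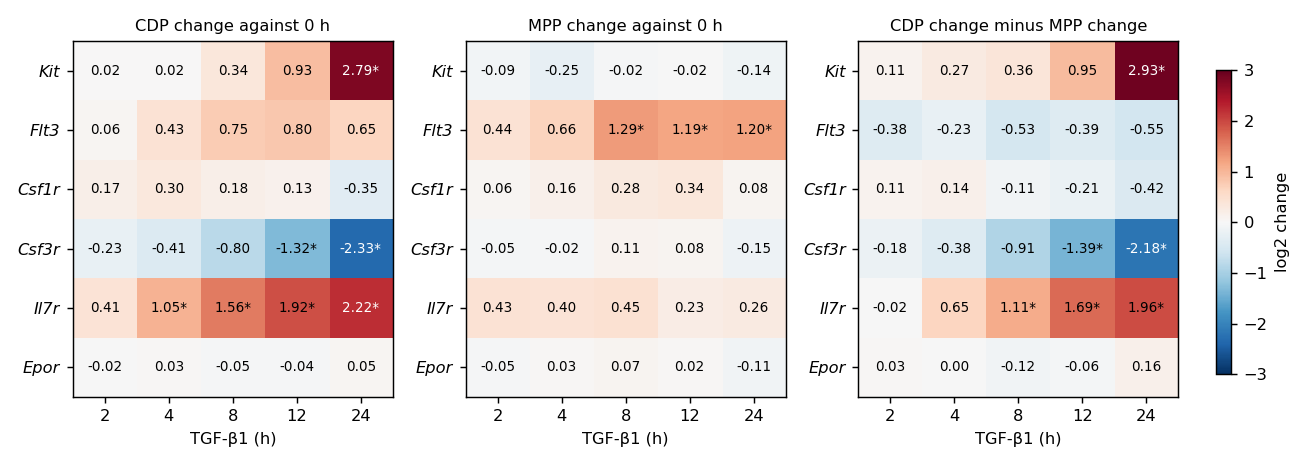
Log2 change of each receptor gene (rows) at 2 to 24 h of TGF-β1 against 0 h in CDP and in MPP, and the CDP change minus the MPP change (colour and number, same scale). An asterisk marks a change that passed the test. The CDP panel holds -2.33 for Csf3r and 2.79 for Kit at 24 h, while the MPP panel has asterisks for Flt3 alone.

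The next question was whether CDP and MPP responded differently, which the interaction contrast tests as the CDP change minus the MPP change. At 24 h 3 of the 6 receptors passed it, against 1.85% of all genes. Kit differed by 2.93 ± 0.28 (limma, adjusted p = 2.84e-08), with changes of 2.79 in CDP and -0.14 in MPP. Csf3r differed by -2.18 ± 0.10 (limma, adjusted p = 1.17e-13), ranking 5 of all genes by p, with changes of -2.33 in CDP and -0.15 in MPP. Il7r differed by 1.96 ± 0.18 (limma, adjusted p = 1.16e-08), with changes of 2.22 in CDP and 0.26 in MPP. Flt3 (-0.55 ± 0.14, limma, adjusted p = 0.00906) and Csf1r (-0.42 ± 0.09, limma, adjusted p = 0.000886) met the adjusted p but not the fold threshold. The Epor difference was 0.16 ± 0.11 (95% interval -0.08 to 0.40).

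The receptors passed the interaction test at different times. These times depend on the SE of each gene and were not compared by a test. At 2 h the interaction passed for 0 of the 6, against 0.0301% of all genes (limma, 1 at an unadjusted p under 0.05, Flt3). At 8 h Il7r passed (1.11 ± 0.18, limma, adjusted p = 0.000325), 1 of 6 against 0.411% of all genes, and Csf3r was at -0.91 ± 0.10 (limma, adjusted p = 3.48e-06). The Il7r call at 8 h was lost without replicate 1 (1.21, limma, adjusted p = 0.0466) or replicate 2 (1.03, limma, adjusted p = 0.0102), or without the replicate block (limma, adjusted p = 0.161). At 12 h both passed, Il7r at 1.69 ± 0.18 and Csf3r at -1.39 ± 0.10, 2 of 6 against 0.727% of all genes. Without the replicate block the adjusted p of Csf3r at 12 h was 0.0177 (limma). Kit was then at 0.95 ± 0.28 (limma, adjusted p = 0.0499) and passed only at 24 h.

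The fold threshold kept smaller shifts of Flt3 and Csf1r out of these counts. Tested over all 6 times at once, 3 receptors passed in CDP (Kit, Csf3r and Il7r), against 3.43% of all genes, and 1 in MPP (Flt3), against 1.33%. The Flt3 call over the MPP course was lost without the replicate block (limma, adjusted p = 0.0151). By the adjusted p alone, 5 of the 6 passed in CDP at 24 h and over the course, against 19.8% and 20.6% of all genes. In CDP at 4 h the count was then 2 (Csf1r and Il7r), against 4.84% of all genes, and at 8 h and 12 h 3 (Flt3, Csf3r and Il7r), against 9.51% and 11.7%. Between 12 and 24 h in CDP it was 3 (Kit, Csf1r and Csf3r), against 4.57%. In MPP 2 receptors passed so at 4 h (Kit and Flt3), 3 at 8 h (Flt3, Csf1r and Il7r), 2 at 12 h (Flt3 and Csf1r) and 3 over the course (Flt3, Csf1r and Csf3r), against 5.04%, 9.17%, 8.31% and 12.9% of all genes. Between neighbouring MPP times Flt3 passed so at 8 h against 4 h, where 0.527% of all genes did, and Csf3r at 24 h against 12 h (-0.22 ± 0.04), where 0.938% did. For the difference of changes 2 passed so at 8 h (Csf3r and Il7r), against 1.88% of all genes, and 5 at 24 h, all but Epor, against 10.1%.

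CDP and MPP were also compared directly, untreated and at 24 h, in a fit without the replicate block, whose p can overstate certainty. In untreated cells 3 of the 6 receptors passed, against 2.81% of all genes. Kit was lower in CDP (8.40, 8.86 and 8.63, against 11.30, 11.20 and 11.40 in MPP, difference -2.67 ± 0.23, limma, adjusted p = 2.95e-10). Flt3 was higher in CDP (12.42, 12.40 and 12.28, against 10.75, 10.23 and 9.69 in MPP, difference 2.14 ± 0.22, limma, adjusted p = 8.61e-09). Il7r was higher in CDP too (8.90, 8.71 and 9.64, against 7.76, 8.28 and 7.74 in MPP, difference 1.15 ± 0.25, limma, adjusted p = 0.000755). The Il7r call was lost without replicate 1 (1.16, limma, adjusted p = 0.0703), replicate 3 (0.78) or CDP 0 h replicate 3 (0.87). Csf3r differed by -0.80 ± 0.23 (limma, adjusted p = 0.0143), which did not pass, with CDP arrays of 10.70 to 11.26 and MPP arrays of 11.63 to 11.88. Csf1r differed by 0.15 ± 0.10 (95% interval -0.06 to 0.35). CDP are commonly sorted by surface Kit, Flt3 and Csf1r protein. The sort and the cell type cannot be told apart in these differences.

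At 24 h Flt3, Csf3r and Il7r passed, 3 of the 6 against 5.06% of all genes. The Kit difference was 0.26 ± 0.23 (95% interval -0.21 to 0.72, limma, adjusted p = 0.384), with CDP arrays of 11.70, 10.79 and 11.78 around the MPP arrays of 11.19, 11.05 and 11.25. Csf3r was lower in CDP (8.77, 8.16 and 8.93, against 11.49, 11.55 and 11.75 in MPP, difference -2.98 ± 0.23, limma, adjusted p = 3.10e-11). Il7r was higher in CDP (11.16, 11.35 and 11.38, against 8.16, 8.22 and 8.18 in MPP, difference 3.11 ± 0.25, limma, adjusted p = 3.38e-11). Flt3 remained higher in CDP by 1.60 ± 0.22, and Csf1r was at -0.27 ± 0.10 (limma, adjusted p = 0.0285).

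**Figure D3:**
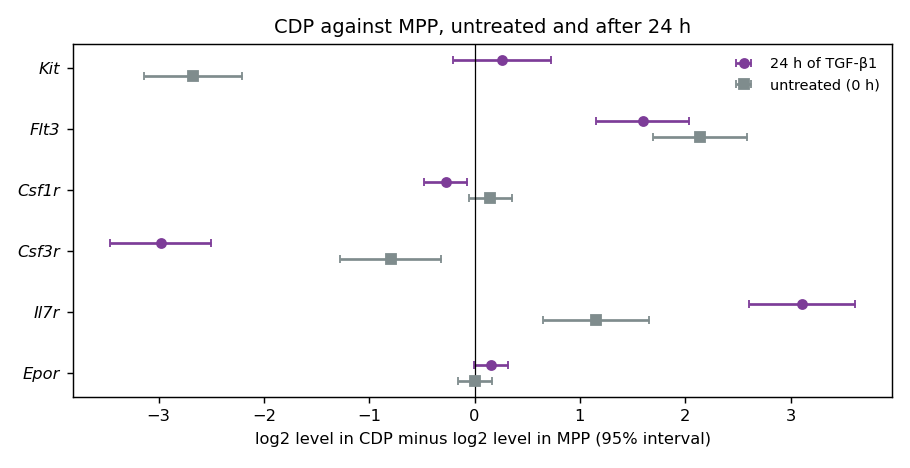
Difference of log2 level, CDP minus MPP (horizontal axis), for each receptor gene at 24 h of TGF-β1 (purple circles) and in untreated cells (grey squares), with 95% intervals from limma. The Kit difference is 0.26 at 24 h and -2.67 in untreated cells, and Csf3r and Il7r lie further from 0 at 24 h.

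The ligand genes of the receptors were read in the same cells. None of 10 measured ligand genes passed at 24 h (limma, 0 in CDP and 2 in MPP at an unadjusted p under 0.05). Kitl, the stem cell factor gene, read 5.45 in CDP at 24 h and 5.53 at 0 h, and 5.39 in MPP at 24 h and 5.49 at 0 h. Flt3l read 9.10 and 9.09 in CDP and 8.82 and 8.85 in MPP at 24 and 0 h. Csf1 read 7.47 and 7.56 in CDP and 7.84 and 8.12 in MPP, with an MPP change of -0.29 (limma, adjusted p = 0.0163). Il34, Csf3, Il7, Tslp, Epo, Csf2 and Il3 differed by 0.10 or less in both cell types at 24 h.

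Other receptors were taken from 4 lists. Of 12 other receptor tyrosine kinase genes, among them Pdgfra and Kdr, which flank Kit on chromosome 5, none passed at 24 h in CDP or MPP (limma, 4 and 5 at an unadjusted p under 0.05). In CDP at 24 h Pdgfra was at -0.05 ± 0.08 and Kdr at 0.18 ± 0.56 against 0 h. Pdgfrb, which lies next to Csf1r on chromosome 18, was at 9.66 in MPP at 24 h and 8.99 at 0 h (0.67 ± 0.09). Of 12 receptors with the common beta or gamma chain, none passed in CDP (limma, 3 at an unadjusted p under 0.05), and Il21r, the interleukin 21 receptor gene, rose in MPP (1.11 ± 0.13). Crlf2, which pairs with Il7r in the receptor of thymic stromal lymphopoietin, was at 10.16 and 9.74 in CDP at 24 and 0 h (0.42 ± 0.06), under the fold threshold. Of 11 gp130 family and single chain receptors, Il27ra fell in both cell types (by 1.16 in CDP and 1.02 in MPP on the log2 scale), and the shared chain gene Il6st fell in MPP (-1.14 ± 0.11). Of 11 interferon, IL-10 and IL-1 family receptors, the decoy receptor gene Il1r2 fell in MPP (-1.05 ± 0.11). The median change of each of these 4 lists at 24 h lay within 0.09 of 0 in both cell types, beside 0.00 in CDP and -0.01 in MPP over all genes.

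Untreated CDP and MPP differed in more of these receptors. Met, Igf1r and Pdgfrb were lower in CDP (-2.21 ± 0.31, -1.52 ± 0.14 and -1.12 ± 0.15). Higher in CDP were Lifr (2.76 ± 0.34), Il21r (2.01 ± 0.12), Il1r2 (1.85 ± 0.29), Il18r1 (1.39 ± 0.09) and Il10ra (1.14 ± 0.10). Those are 3 of 12 receptor tyrosine kinases lower, against 1.55% of all genes, and 5 of 34 cytokine receptors higher, against 1.26%.

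Signalling genes downstream of the receptors were read in 4 lists. Of 9 Jak and Stat genes, Jak2, the kinase that Epor uses, rose in CDP at 24 h (12.74, against 11.44 at 0 h, change 1.30 ± 0.18). Jak1, the kinase bound by Il7r, was at 12.14 and 12.10 in CDP at 24 and 0 h. Of 21 inhibitors and feedback genes 1 passed in CDP, the adaptor gene Dok2 (-1.03 ± 0.07), and none in MPP (limma, 10 at an unadjusted p under 0.05). None of 16 adaptors and kinases of receptor tyrosine kinases passed in CDP or MPP (limma, 10 and 8 at an unadjusted p under 0.05). Of 16 Stat5 and Ras targets, the phosphatase gene Dusp6 rose in CDP (1.80 ± 0.11) and MPP (1.10 ± 0.09). Pim1, a Stat5 target kinase gene, and Bcl2, a survival gene, fell in CDP (-1.59 ± 0.10 and -1.34 ± 0.07). For Bcl2 the difference of responses passed as well (-1.66 ± 0.11, limma, adjusted p = 1.96e-11).

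Among 26 transcription factors known to act on the receptor genes, 2 passed in CDP at 24 h. Runx3 rose (13.71, against 12.27 at 0 h, change 1.44 ± 0.07) and Cebpb fell (-1.28 ± 0.14). Gata2, which is known to act at Kit in mast cells and stem cells, was at 8.89 and 7.95 in CDP and 10.51 and 9.75 in MPP at 24 and 0 h, under the fold threshold in both. Spi1, which encodes PU.1, was at 13.46 and 13.31 in CDP at 24 and 0 h. In untreated cells Gfi1, Cebpe, Gata2, Cebpa and Myb were lower in CDP, with differences of -1.16 (Myb) to -2.12 (Gfi1). None of the 26 passed in MPP at 24 h (limma, 11 at an unadjusted p under 0.05).

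**Figure D4:**
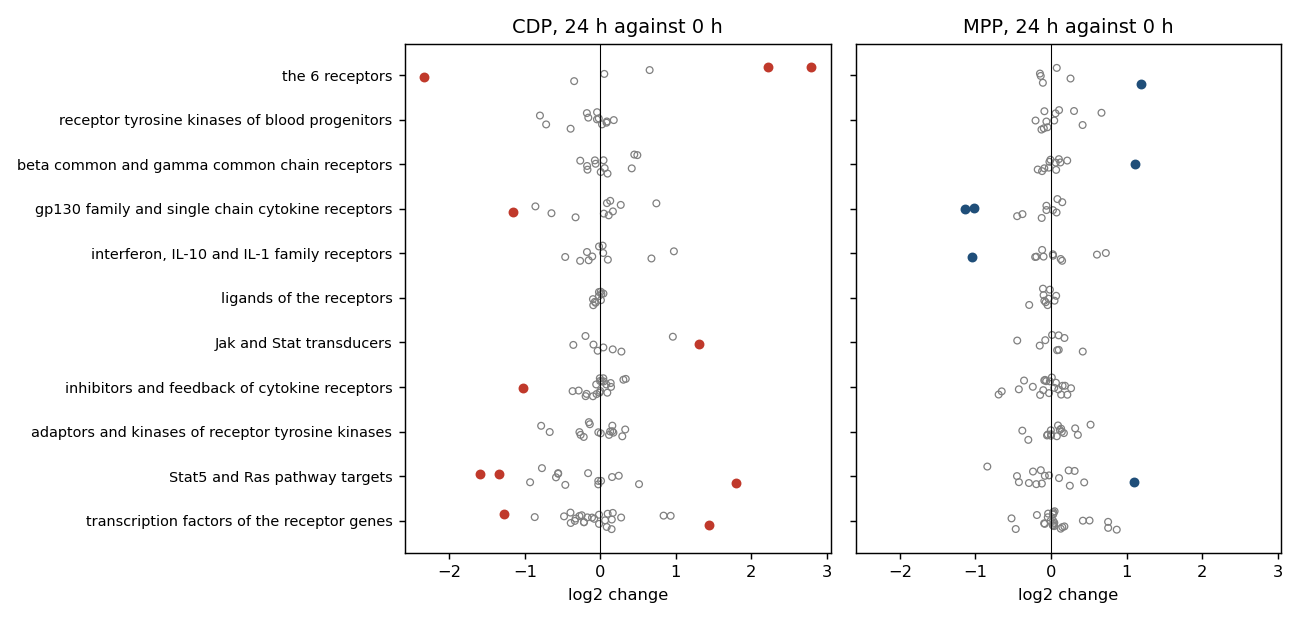
Log2 change at 24 h of TGF-β1 against 0 h (horizontal axis) of single genes (points) in each receptor and pathway list (rows), in CDP and MPP. Filled points passed the test. In CDP 3 of the 6 receptors are filled, at -2.33, 2.22 and 2.79, and no ligand gene is filled.

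Genes that moved most like each receptor were sought over the 12 group means, among 2097 genes other than the receptor whose means span at least 1 (2098 for Csf1r and Epor). The measure was Pearson's r, given as a description since the 12 points share arrays and 2 cell types. Closest to Kit were Zfp111 (r = 0.98) and Alox5 (r = 0.97), which encodes the enzyme that starts leukotriene synthesis, then Tent5a, 4930523C07Rik and Akr1e1 (r = 0.94 to 0.95). Alox5 rose in CDP at 24 h by 3.20 ± 0.19, with 2.00 ± 0.19 of it after 12 h, and was at 0.30 ± 0.05 in MPP. In untreated CDP it was lower than in untreated MPP (difference -2.01 ± 0.27).

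**Figure D5:**
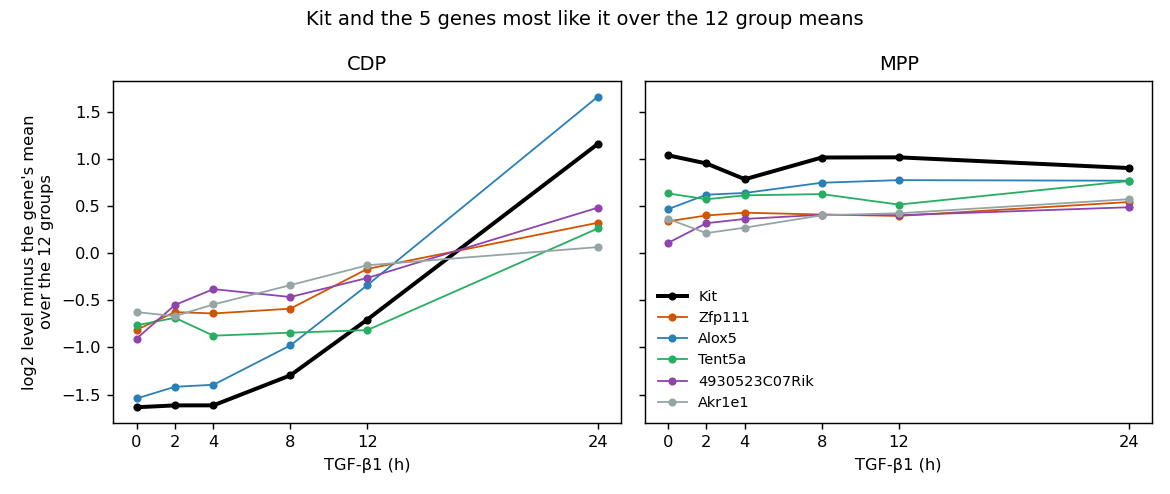
Log2 level minus the gene's mean over the 12 groups (vertical axis) against hours of TGF-β1 (horizontal axis) for Kit (black) and the 5 genes with the highest correlation with it, in CDP and MPP. Points are means of 3 arrays. Kit and Alox5 climb between 12 and 24 h in CDP, by 1.86 and 2.00.

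Closest to Csf3r were Emilin2, an extracellular matrix glycoprotein gene, Fcgr3, a low-affinity IgG receptor gene, Kif13a, Rab31 and Arap1 (r = 0.99 for all 5). All 5 fell in CDP at 24 h (-1.11 ± 0.06 for Rab31 to -2.79 ± 0.27 for Fcgr3), and none passed in MPP. Closest to Il7r were Ccr6, a chemokine receptor gene (r = 0.99), and Dennd3, Iqce, Rab30 and Ppm1j (r = 0.98 to 0.99). Ccr6 rose by 2.34 ± 0.18 in CDP and was at 0.14 ± 0.07 in MPP. Ctsh, a lysosomal protease gene, and Trerf1, Sesn3, Nfatc2 and Fads3 were closest to Flt3 (r = 0.99 for all 5), of which Fads3 rose in both cell types (1.31 ± 0.14 in CDP and 1.04 ± 0.07 in MPP) and Nfatc2 in MPP (1.17 ± 0.07). For Csf1r the highest r was 0.88 (Ms4a7), followed by Lrp1, Baiap2, Cx3cr1 and Cxcr3, and for Epor 0.58 (Acod1). Among the receptors themselves Csf3r and Il7r ran opposite over the 12 means (r = -0.96), Flt3 ran with Il7r (r = 0.91) and against Csf3r (r = -0.84), and Kit had no r beyond -0.66 with any other.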

How the data were processed

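RNA of 36 sorted cultures was hybridised to Affymetrix Mouse Gene 1.0 ST arrays. Each deposited value is a probe set's log2 intensity, which the authors made with Affymetrix Power Tools and RMA, which corrects background, normalizes between arrays and summarises probes. Versions and genome build are not given in the sources used here, and scanner files were not used here. Changes of dim and very bright probe sets can be compressed on arrays. Precision is limited by the count of arrays.

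Of 35556 probe sets, 21789 carried 1 symbol in the platform's annotation, 1621 several and 12146 none. Where a gene had several probe sets the brightest was kept, which left 19938 genes. Changes against 0 h and between neighbouring times were tested by limma 3.58.1 in R 4.3.3 within each cell type (18 arrays), blocking on the replicate number. The difference of changes used 36 arrays and blocked on each cell type's own replicate numbers. CDP minus MPP used 36 arrays without a block. That fit counts all arrays as independent, although same-numbered arrays were correlated across times, so its p can overstate certainty. All tests were two-sided, and a gene passed at an adjusted p (Benjamini-Hochberg over all genes) under 0.01 and an absolute log2 change of 1 or more. The block followed the replicate numbers of the labels. Deviations of same-numbered arrays from their group means correlated above 0.1 in 15 of 15 pairs with 0 h in CDP (lowest 0.212) and in 15 of 15 in MPP (lowest 0.189). Between neighbouring times they did so in 11 of 12 pairs in CDP (lowest -0.128) and 12 of 12 in MPP, so that for steps between CDP times the pairing did not hold in every pair. Between cell types 11 of 18 pairs did so (lowest -0.0812), and CDP minus MPP was not blocked. Scripts were tested on simulated data. Figures were drawn with matplotlib 3.10.9 in Python 3.11.15.

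The receptors and the gene lists were chosen with earlier results of these data known. The rule for named genes took every receptor, the ligands, of each list at most the 8 genes with the largest change among those that passed, and the 5 genes most like each receptor over the 12 group means. The text names fewer of some lists, as examples beside the counts, and adds defining markers that did not pass. Alternatives were no block, leaving out each array and each replicate number, repeated quantile normalization, brighter genes only, 1 fit of all arrays and other thresholds.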

Additional observations from a re-analysis of the deposited data

Results flagged for a closer look

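For each result here, the change in CDP differed from the change in MPP by the test of the difference itself (limma, 36 arrays, 3 per group). At 8 h the CDP change minus the MPP change was 1.11 for Il7r (adjusted p = 0.000325) and -0.91 for Csf3r (adjusted p = 3.48e-06). At 12 h it was 1.69 for Il7r (adjusted p = 6.04e-07) and -1.39 for Csf3r (adjusted p = 1.68e-09). At 24 h it was 2.93 for Kit (adjusted p = 2.84e-08), 1.96 for Il7r (adjusted p = 1.16e-08) and -2.18 for Csf3r (adjusted p = 1.17e-13).

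Flt3 (-0.55, limma, adjusted p = 0.00906) and Csf1r (-0.42, limma, adjusted p = 0.000886) also differed at 24 h, both by less than 2-fold. Their adjusted p depended on which arrays were kept, while the direction did not. The Flt3 difference was -0.61, -0.64 and -0.39 without replicate 1, 2 or 3, with adjusted p of 0.0694, 0.0463 and 0.0342, and -0.40 (adjusted p = 0.0505) without MPP 0 h replicate 3. The Csf1r difference was -0.40 without replicate 1 or 2, with adjusted p of 0.0104 and 0.0467, and -0.47 (adjusted p = 0.00671) without replicate 3.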

How the results depend on the processing

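Of 3333 values of single receptors under alternatives, 3290 kept their side of the threshold, 22 lost a call and 21 gained one. In direction, 0 calls reversed. Changes that did not pass could change sign. Kit in CDP at 2 h (0.02) ranged from -0.23 to 0.22 on leaving out 1 array or replicate number. Without the replicate block the receptors that passed numbered 0 in CDP at 4 h, 1 in CDP at 24 h against 12 h, 0 in MPP at 12 h, 0 over the MPP course, and 0 at 8 h and 1 at 12 h for the difference of changes. The calls lost without the block were those of Il7r in CDP at 4 h (limma, adjusted p = 0.0199), Csf3r in CDP at 24 h against 12 h (0.0702), Flt3 in MPP at 12 h (0.0103) and over the course (0.0151), Il7r at 8 h (0.161) and Csf3r at 12 h (0.0177) for the difference. The block changed no other receptor call. With quantile normalization again, 1 receptor passed in CDP at 24 h against 12 h.

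With the adjusted p alone, the receptors that passed numbered 2, 3, 3 and 5 in CDP at 4, 8, 12 and 24 h, 3 at 24 h against 12 h and 5 over the course. In MPP they numbered 2, 3 and 2 at 4, 8 and 12 h, 3 over the course, 1 at 8 h against 4 h and 1 at 24 h against 12 h, and for the difference of changes 2 at 8 h and 5 at 24 h. At 24 h Flt3 (0.65) and Csf1r (-0.35) were gained in CDP, and Flt3 (-0.55) and Csf1r (-0.42) in the difference. All genes passing then numbered 3939 against 627 in CDP and 1935 against 240 in MPP at 24 h, 2809 against 561 and 5659 against 1008 for CDP minus MPP at 0 and 24 h, and 2007 against 369 for the difference at 24 h.

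Leaving out 1 array or replicate number gave 0 to 1 receptors in CDP at 4 h, 1 to 2 in CDP at 24 h against 12 h, 0 to 1 in MPP at 12 h, 0 to 1 for the difference at 8 h, and 0.78 to 1.52 for Il7r in untreated CDP minus MPP. Epor was left out where only genes brighter than the median gene were tested. The cause of these shifts was not tested.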
